A study of Mus musculus with 10 samples.

Results

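Sox genes encode transcription factors that bind DNA through a high-mobility-group (HMG) box and are grouped into subfamilies by the likeness of that box. The 10 genes described here are Sox1, Sox2 and Sox3 of the SoxB1 subfamily, Sox21 of SoxB2, Sox4, Sox11 and Sox12 of SoxC, Sox6 of SoxD, and Sox8 and Sox9 of SoxE. They were picked by name, with earlier results of these data known, from the 43629 gene identifiers of the count tables, and all 10 were among the 17039 genes that passed the filter on low counts. The samples were dorsal telencephalon, the part of the embryonic forebrain that forms the cerebral cortex, of C57BL/6 mouse embryos at E14.5. The 5 controls were Dot1l-cKO f/+ without Cre, that is, they carried 1 conditional (floxed) allele of Dot1l, the gene of the histone H3 lysine 79 methyltransferase. The 5 Dot1l-cKO samples were Dot1l-cKO f/f with Cre, that is, both Dot1l alleles were floxed and 1 copy of a Cre driver was active in the telencephalon as a whole, ventral as well as dorsal. Only the Dot1l-cKO embryos carried the Cre driver allele, so loss of Dot1l and the presence of that allele cannot be told apart in this comparison. Per the study's methods each in vivo replicate was a separate animal, and the labels of these libraries do not add to that.

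In the developing cortex, SOXB1 proteins are known for keeping neural stem and progenitor cells undifferentiated, and SOX21 is known for opposing them. SOXC proteins act in cells that leave the cell cycle and turn on neuronal genes. SOXE proteins are linked to the gliogenic competence of progenitors, SOX9 already in radial glia and SOX8 and SOX10 later in oligodendrocyte precursors. SOX6 is found in cortical progenitors and, in another setting, in interneurons that arise in the medial ganglionic eminence (MGE) of the ventral telencephalon and migrate into the cortex.

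Total counts lay between 54202349 and 66556034 per sample. Replicates 2 and 3 of both groups shared a number, 57, at the start of their column names in the normalised tables, and neither labels nor methods explain it. In these 4 samples 0.0471% to 0.492% of counts came from mitochondrial rRNA, against 5.79% to 10.9% in the other 6, so the results on the 10 Sox genes are also given without them, that is, within the other 3 samples of each group, and other calls are where that ends them. Dot1l itself stood at 37.3 ± 4.04 CPM (SD, n = 5) in controls and 39.4 ± 11.7 CPM (SD, n = 5) in Dot1l-cKO, where CPM are counts scaled to a library of 1e+06 after normalisation (log2 fold change 0.08, SE 0.20, adjusted p = 0.864 by edgeR's quasi-likelihood test). That count covers all exons of the gene, and the floxed part was not counted on its own, so it does not check the deletion.

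Of the 10 Sox genes, 4 decreased in Dot1l-cKO and 0 increased in edgeR. At an unadjusted p under 0.05, 6 were lower and 0 higher, against 7.30% of all genes lower, and DESeq2 called 6 lower and 0 higher, against 3.27% of all genes lower. Those that decreased were Sox1, Sox4, Sox6 and Sox11, and they are also the 4 whose groups did not overlap. Over all genes tested, 7.11% were called in either direction at an adjusted p under 0.05, 1.44% as lower and 5.67% as higher, and 2.17% had all Dot1l-cKO samples below all controls. The log2 fold change was negative for 9 of the 10 Sox genes, against 51.2% of all genes, and its median was -0.37 over the 10 and -0.01 over all genes tested. With the replicate number as a block in the model, 6 of the 10 were called lower, with Sox2 and Sox8 added, against 2.91% of all genes. Because the tissue was sequenced in bulk, fewer cells of a type and less RNA per cell cannot be told apart for any of these genes.

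**Figure D1:**
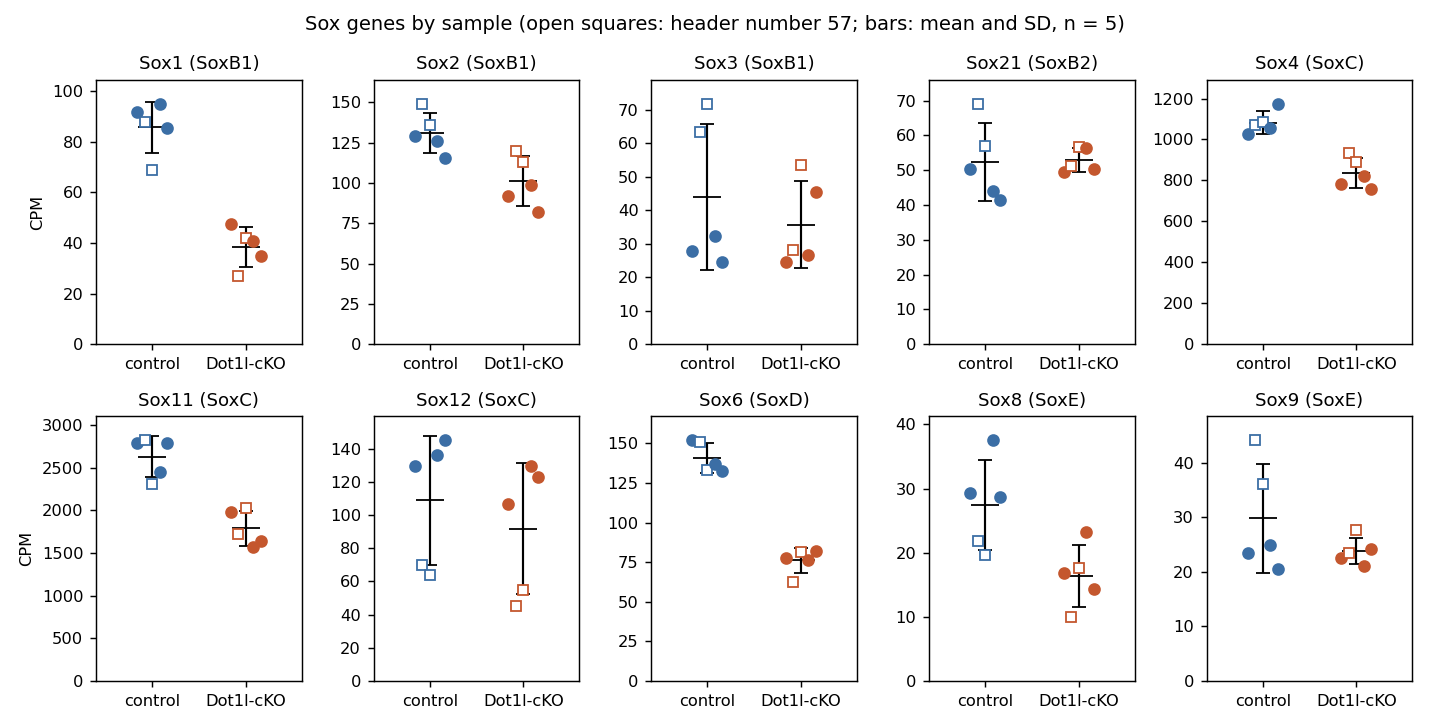
CPM (vertical axis, from 0) of the 10 Sox genes in the 5 control (blue) and 5 Dot1l-cKO (orange) samples. Open squares are the 4 samples with header number 57, and bars give the mean and SD. The groups are separate for Sox1, Sox4, Sox11 and Sox6, while Sox12 splits by header number in both groups.

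For the promoters below, the window was 250 bases before to 50 bases after the RefSeq transcription start on GRCm38.p6, which holds 8 of the 10 genes. The sequences of Sox1, Sox4 and Sox11 are shown because these 3 genes decreased and have a single RefSeq start, so that their upstream sequence can be read side by side. Capitals mark the CCAAT box, written CCAAT on the shown strand and ATTGG where it lies on the other. The Sox1 window is chr8:12395269-12395568 on the plus strand, that of Sox4 is chr13:28953650-28953949 on the minus strand, and that of Sox11 is chr12:27342669-27342968 on the minus strand, each 5′ to 3′.
Sox1: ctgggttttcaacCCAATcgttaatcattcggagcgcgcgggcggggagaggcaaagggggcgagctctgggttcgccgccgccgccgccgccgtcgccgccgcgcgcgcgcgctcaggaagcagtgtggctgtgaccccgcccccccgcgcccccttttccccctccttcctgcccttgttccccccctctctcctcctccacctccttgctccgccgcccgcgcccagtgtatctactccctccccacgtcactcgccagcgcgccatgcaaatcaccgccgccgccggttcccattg
Sox4: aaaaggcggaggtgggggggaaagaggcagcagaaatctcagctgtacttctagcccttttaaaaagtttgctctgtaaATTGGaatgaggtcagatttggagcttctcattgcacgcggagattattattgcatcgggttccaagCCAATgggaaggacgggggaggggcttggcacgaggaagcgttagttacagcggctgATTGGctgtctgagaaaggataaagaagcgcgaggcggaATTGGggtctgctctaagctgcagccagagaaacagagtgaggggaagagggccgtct
Sox11: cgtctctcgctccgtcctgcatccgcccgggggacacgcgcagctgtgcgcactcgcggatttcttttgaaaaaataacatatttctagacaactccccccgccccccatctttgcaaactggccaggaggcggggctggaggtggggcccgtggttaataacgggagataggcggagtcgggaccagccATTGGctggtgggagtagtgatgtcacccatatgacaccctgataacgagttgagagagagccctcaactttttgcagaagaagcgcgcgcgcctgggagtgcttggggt
Sox4 held 4 CCAAT boxes, Sox1 and Sox11 1 each, and 37.4% of the 32851 RefSeq promoter windows held at least 1 on either strand. The GC box GGGCGG, searched on both strands, occurred 3 times in the Sox1 window, 2 times in that of Sox11 and 0 times in that of Sox4, and 35.7% of all windows held it. The TATA box TATAAA was in none of the 3 windows and in 13.6% of all. Sox1 had 37 CpG dinucleotides in its window, Sox11 21 and Sox4 12, against a median of 7 over all windows. Sox12, which did not pass the test, had 47. The 3 windows thus share the CCAAT letters, in unequal number, and differ in GC box and CpG content. Sox2 and Sox12, which are not among the 4 that decreased, also held 1 CCAAT box each. Sox6 has 6 RefSeq starts, and its windows held between 0 and 4 CCAAT boxes.

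Sox1 of the SoxB1 subfamily (ENSMUSG00000096014) is a single-exon gene (GRCm38, chromosome 8, 12395295 to 12400126, plus strand). The controls, in the order of replicates 1 to 5, held 91.7, 87.5, 68.9, 94.9 and 85.5 CPM. The Dot1l-cKO samples, in the same order, held 47.6, 27.0, 42.0, 40.9 and 34.8 CPM. The lowest control therefore stood above the highest Dot1l-cKO sample, and the mean in Dot1l-cKO was 44.9% of that in controls. The log2 fold change was -1.16 (SE 0.14, adjusted p = 0.000867 by edgeR), the largest decrease of the 10 Sox genes. Sox1 was lower in Dot1l-cKO in all 5 pairs of samples that share a replicate number, with log2 differences of -1.69 to -0.71.

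Sox2 (ENSMUSG00000074637, chromosome 3, 34650405 to 34652461, plus strand), which keeps neural progenitors in their undifferentiated state, measured 129.3, 149.1, 136.0, 126.3 and 115.4 CPM in the 5 controls. The Dot1l-cKO replicates held 91.9, 120.0, 112.8, 99.0 and 82.2 CPM in the same order. The groups overlapped between control replicate 5 and Dot1l-cKO replicate 2, although Dot1l-cKO was lower in each of the 5 pairs. The log2 fold change of -0.38 (SE 0.11) had an adjusted p of 0.0639 in edgeR without a block and of 0.0091 with the replicate number as a block. Without the 4 samples of header number 57 it was -0.45 with an adjusted p of 0.0354. The call also passed when control replicate 5 (adjusted p = 0.0492 by edgeR) or Dot1l-cKO replicate 2 (adjusted p = 0.0327 by edgeR) was left out.

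Sox3 (ENSMUSG00000045179), the X-linked SoxB1 gene, was not called. Control replicates 1 to 5 held 27.9, 63.3, 71.8, 32.5 and 24.5 CPM, and Dot1l-cKO replicates 24.7, 28.3, 53.6, 26.7 and 45.4 CPM. The groups overlapped widely, and the spread within controls (SD 21.9 CPM, n = 5) exceeded the difference between the means of 44.0 and 35.7 CPM. The log2 fold change was -0.30 (SE 0.33, adjusted p = 0.670 by edgeR), and within the samples outside header number 57 it was 0.19 (adjusted p = 0.705 by edgeR). The labels do not give the sex of the embryos. Xist stood at log2 CPM of -1.90 in control replicate 4 and -1.50 and -0.63 in Dot1l-cKO replicates 1 and 3. In the other samples it stood at 6.98 to 8.78. With Xist as a covariate the log2 fold change of Sox3 was -0.26 (adjusted p = 0.763 by edgeR). Levels between genes can be compared only per length. Per kilobase of exon, Sox2 stood at 63.8 CPM in controls, Sox3 at 21.3 CPM and Sox1 at 17.7 CPM, and the ranges of Sox3 and Sox1 overlapped.

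Sox21 of SoxB2 (ENSMUSG00000061517) was the only one of the 10 with a fold change not below zero. It measured 50.5, 69.1, 56.98, 43.9 and 41.5 CPM in controls and 49.5, 51.2, 56.8, 56.4 and 50.4 CPM in Dot1l-cKO. All Dot1l-cKO values lay within the range of the controls, and the log2 fold change was 0.01 (SE 0.13, adjusted p = 0.972 by edgeR), or 0.20 (adjusted p = 0.303 by edgeR) without the samples of header number 57. The sign was negative under DESeq2's size factors and in several other alternatives, so no direction is given for Sox21.

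Sox11 and Sox4 of SoxC had the highest levels of the Sox genes described here. Sox11 (ENSMUSG00000063632, chromosome 12, 27334264 to 27342574, minus strand), a factor of newborn neurons, stood at 2788, 2818, 2305, 2451 and 2786 CPM in the 5 controls. Among Dot1l-cKO samples it stood at 1978, 1724, 2030, 1568 and 1637 CPM. Every Dot1l-cKO sample was below every control, and the mean was 68.0% of that in controls. Sox11 had a log2 fold change of -0.56 (SE 0.10, adjusted p = 0.00532 by edgeR).

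Sox4 (ENSMUSG00000076431, chromosome 13, 28948919 to 28953713, minus strand), which acts beside Sox11 in neuronal differentiation, showed a smaller decrease. Control replicates 1 to 5 held 1026, 1069, 1084, 1054 and 1174 CPM, and Dot1l-cKO replicates held 780, 933, 890, 819 and 758 CPM. The groups did not overlap, and the mean in Dot1l-cKO was 77.3% of that in controls. Its log2 fold change was -0.37 (SE 0.07, adjusted p = 0.0122 by edgeR). An annotated RNA of the opposite strand, Gm26735, covers 54.6% of the Sox4 exon. It measured 4.06 ± 0.887 CPM (SD, n = 5) in controls and 2.94 ± 0.918 CPM (SD, n = 5) in Dot1l-cKO, and the counting was done by strand.

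Sox12 (ENSMUSG00000051817), the least abundant SoxC gene, differed more by header number than by genotype. It measured 129.8, 70.0, 64.0, 136.3 and 145.0 CPM in controls and 106.6, 45.1, 54.8, 129.7 and 123.0 CPM in Dot1l-cKO. Replicates 2 and 3, with header number 57, were the low ones in both groups, at 0.452 times the level of the others. Sox12 was lower in Dot1l-cKO in all 5 pairs, with log2 differences of -0.63 to -0.07, but the log2 fold change of -0.25 (SE 0.33) had an adjusted p of 0.735 in edgeR. With the replicate number as a block the log2 fold change was -0.29 and the adjusted p 0.0690, which still missed the threshold. Without the samples of header number 57 the log2 fold change was -0.20 (adjusted p = 0.327 by edgeR). Per kilobase of exon, controls held 316 CPM of Sox11, 226 CPM of Sox4 and 24.5 CPM of Sox12, and the control ranges of these 3 genes were separate.

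Sox6 (ENSMUSG00000051910, chromosome 7, 115470872 to 116038796, minus strand) encodes a SoxD protein, which has no transactivation domain of its own. It stood at 151.8, 150.6, 132.9, 137.0 and 132.6 CPM in the 5 controls, a narrow range. In Dot1l-cKO it stood at 77.8, 62.6, 81.1, 76.6 and 82.1 CPM. The highest Dot1l-cKO sample was far below the lowest control, and the mean was 53.9% of that in controls. This gave a log2 fold change of -0.89 (SE 0.08, adjusted p = 0.000204 by edgeR), the lowest adjusted p of the 10 Sox genes. At 567925 bases Sox6 is also by far the longest of them, the other 9 spanning 2057 to 8311 bases.

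Of the SoxE genes, Sox8 (ENSMUSG00000024176) measured 29.2, 21.9, 19.7, 37.5 and 28.7 CPM in controls. In Dot1l-cKO it measured 16.8, 9.97, 17.7, 23.2 and 14.3 CPM. Dot1l-cKO was lower in all 5 pairs, yet Dot1l-cKO replicate 4 stood above control replicates 2 and 3. The log2 fold change of -0.74 (SE 0.22) missed the threshold without a block (adjusted p = 0.0746 by edgeR) and passed with the replicate number as a block (-0.76, adjusted p = 0.0175 by edgeR). Without the samples of header number 57 it was -0.82 (adjusted p = 0.0516 by edgeR). Leaving out control replicate 3 (adjusted p = 0.0447 by edgeR) or Dot1l-cKO replicate 4 (adjusted p = 0.0429 by edgeR) also made it pass.

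Sox9 (ENSMUSG00000000567), the SoxE gene of radial glia and astrocytes, was not called. Controls held 23.4, 44.1, 36.1, 24.9 and 20.5 CPM, and Dot1l-cKO samples 22.6, 23.5, 27.6, 21.1 and 24.1 CPM. The 2 high samples were the controls of header number 57, and the remaining values overlapped. Its log2 fold change was -0.32 (SE 0.19, adjusted p = 0.386 by edgeR). As a mean difference in log2 CPM it was -0.65 in the samples of header number 57 and -0.02 in the remaining ones. In edgeR's test of that interaction the p of 0.00588 became 0.728 after adjustment over all genes. By the same test, 0 of the 10 Sox genes and 0 of all genes had an adjusted p under 0.05, while 2 of the 10 and 1071 of all genes had an unadjusted p under 0.05.

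**Figure D2:**
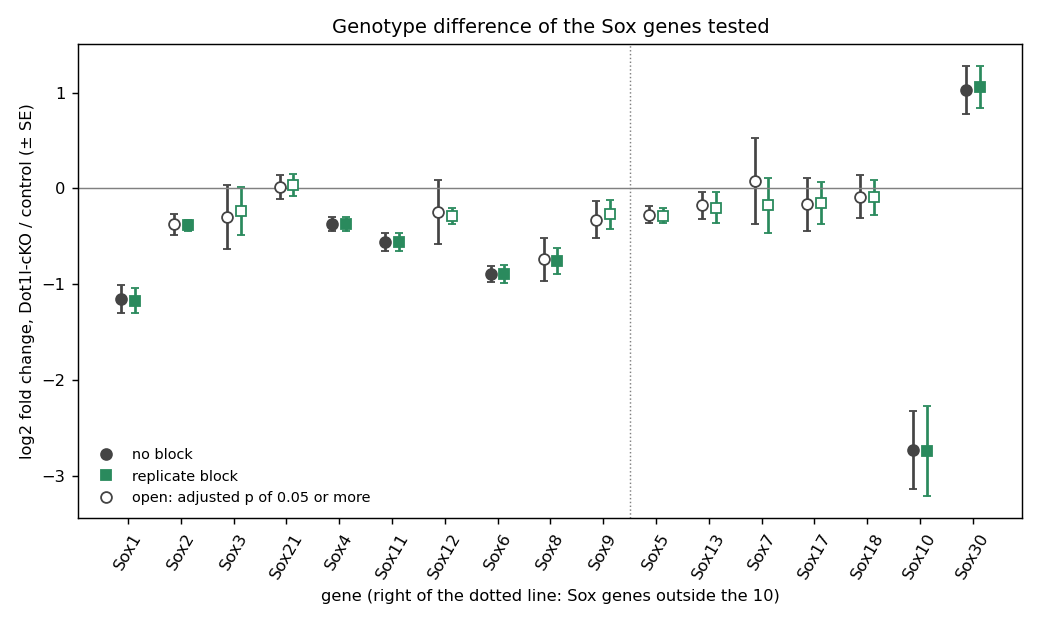
Log2 fold change of Dot1l-cKO over control with its SE (vertical axis) for the 10 Sox genes and, right of the dotted line, 7 other Sox genes that were tested. Circles are edgeR without a block and squares with the replicate number as a block, and filled symbols have an adjusted p under 0.05. Sox1, Sox4, Sox11 and Sox6 are filled in both fits, Sox2 and Sox8 with the block only.

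The header number itself moved 3 of the 10 Sox genes at an adjusted p under 0.05 in edgeR, with genotype in the model, against 11.4% of all genes. In the samples of header number 57, Sox12 was lower (log2 difference -1.15), while Sox2 (0.28) and Sox9 (0.50) were higher. For the 4 genes that decreased, the mean genotype difference in log2 CPM was, first among samples of header number 57 and then among the others, -1.20 and -1.15 for Sox1. It was -0.24 and -0.46 for Sox4, -0.99 and -0.83 for Sox6, and -0.45 and -0.64 for Sox11. Each of the 4 was thus lower on both sides of that split. Within the other 3 samples per group all 4 were called, with adjusted p by edgeR of 0.00508 for Sox1, 0.0290 for Sox4, 0.00508 for Sox6 and 0.0220 for Sox11. Within header number 57, with 2 samples per group, 0 of the 10 Sox genes and 1 of all genes were called in edgeR. Of the 10, 6 were lower there at an unadjusted p under 0.05, against 5.71% of all genes. These were Sox1, Sox2, Sox6, Sox9, Sox11 and Sox12. Sox4 was not among them (unadjusted p = 0.0703 by edgeR).

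**Figure D3:**
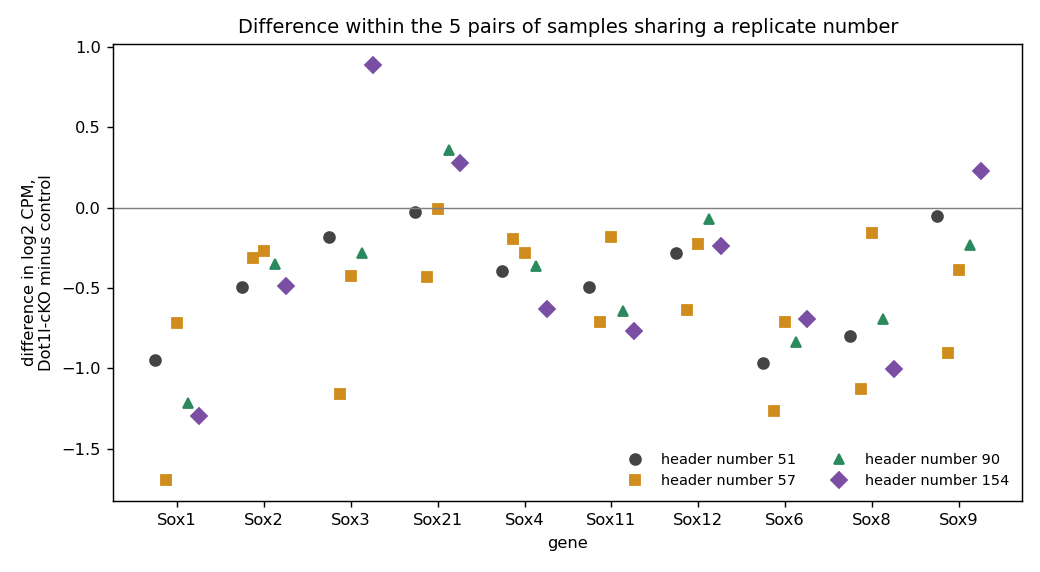
Difference in log2 CPM between Dot1l-cKO and control (vertical axis) in the 5 pairs of samples that share a replicate number, with colour and shape giving the header number. All 5 differences are below zero for Sox1, Sox2, Sox4, Sox6, Sox8, Sox11 and Sox12, and lie on both sides of zero for Sox3, Sox9 and Sox21. For Sox1, Sox4, Sox6 and Sox11 this follows from groups that do not overlap. The share of all genes lower in all 5 pairs is not given.

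Summed per kilobase of exon, the SoxC genes made up 79.9% ± 2.72 (SD, n = 5) of the total of the 10 in controls and 79.7% ± 1.21 (SD, n = 5) in Dot1l-cKO. The SoxB1 genes made up 14.54% ± 2.20 (SD, n = 5) and 14.4% ± 1.14 (SD, n = 5). The shares of these 2 subfamilies hence differed by less than their spread, as did that of SoxE at 2.26% ± 0.271 (SD, n = 5) and 2.14% ± 0.299 (SD, n = 5). The share of SoxB2 was 1.94% ± 0.388 (SD, n = 5) in controls and 2.71% ± 0.199 (SD, n = 5) in Dot1l-cKO, and that of SoxD 1.34% ± 0.0779 (SD, n = 5) and 1.00% ± 0.122 (SD, n = 5), both without overlap between the groups. The total of the 10 was 709 ± 31.6 CPM per kilobase (SD, n = 5) in controls and 515 ± 32.5 CPM per kilobase (SD, n = 5) in Dot1l-cKO. The Dot1l-cKO level was 72.4% of control for SoxB1, 72.4% for SoxC, 68.8% for SoxE, 53.9% for SoxD (Sox6) and 100.9% for SoxB2 (Sox21). These sums are descriptions and were not tested. In control levels per kilobase, Sox11, Sox4, Sox2 and Sox12 followed each other without overlap. The ranges of Sox12, Sox3, Sox1 and Sox21 each overlapped with that of the next, Sox21 stood above Sox6 without overlap, and Sox6, Sox8 and Sox9 at 9.51, 8.78 and 7.21 CPM per kilobase again overlapped. Lengths were those of all annotated exons of a gene merged, 14832 bases for Sox6. The level of a gene with several transcript forms can thus come out too low.

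**Figure D4:**
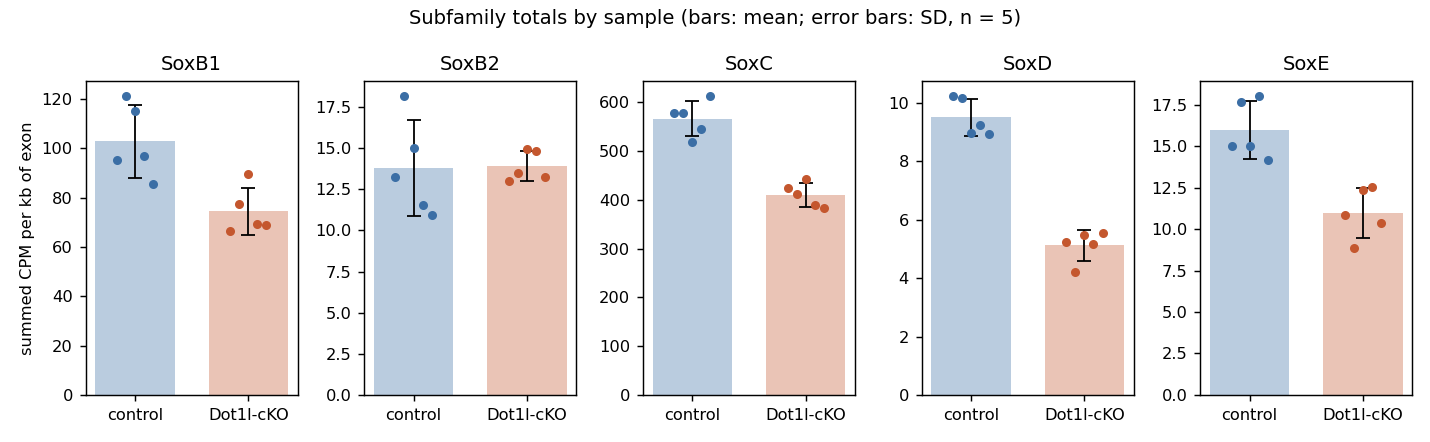
Summed CPM per kilobase of exon (vertical axis, from 0, a scale of its own for each panel) of the members of each Sox subfamily by sample, with bars for the mean and error bars for the SD. SoxB1, SoxC, SoxD and SoxE have lower means in Dot1l-cKO, and SoxB2, here Sox21 alone, does not.

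Among 9 Sox genes outside the 10, 7 passed the filter on low counts, and Sox14 and Sox15 did not. In edgeR 1 of the 7 was called lower and 1 higher, while 2 were lower and 1 higher at an unadjusted p under 0.05. DESeq2 called 2 lower and 1 higher. Sox10, the SoxE gene of oligodendrocyte precursors and neural crest, decreased from 0.490 ± 0.149 CPM (SD, n = 5) to 0.0741 ± 0.0525 CPM (SD, n = 5), with a log2 fold change of -2.73 (SE 0.41, adjusted p = 0.00241 by edgeR). These levels are low, with 19, 24, 25, 35 and 45 counts in control replicates 1 to 5 and 8, 3, 6, 2 and 2 counts in Dot1l-cKO, but the groups did not overlap. Sox30, known from male germ cells, increased from 0.440 ± 0.151 CPM (SD, n = 5) to 0.902 ± 0.187 CPM (SD, n = 5), a log2 fold change of 1.03 (SE 0.25, adjusted p = 0.0320 by edgeR). The call of Sox30 was lost without the samples of header number 57 (0.80, adjusted p = 0.261 by edgeR) and in 8 of the 10 fits that left out a sample, and its control replicate 5 stood above Dot1l-cKO replicate 1. Sox5, a SoxD gene like Sox6, was at 285 ± 14.7 CPM (SD, n = 5) in controls and 235 ± 31.2 CPM (SD, n = 5) in Dot1l-cKO (log2 fold change -0.27, SE 0.09, adjusted p = 0.102 by edgeR). Its unadjusted p was 0.0112 by edgeR. Sox5 passed the threshold in 1 of the 10 fits that left out a sample and in 1 of the 14 other alternatives. Sox13, Sox7, Sox17 and Sox18 had adjusted p values of 0.546 to 0.948 in edgeR.

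Factors known to work with Sox proteins were read next, without a test of the lists as such. Of 6 POU genes, whose proteins bind DNA beside SOX2 and SOX11, 2 decreased and 0 increased, with a median log2 fold change of -0.36. Pou3f3 (Brn1), the most abundant, went from 461 ± 49.2 CPM (SD, n = 5) to 288 ± 27.3 CPM (SD, n = 5), a log2 fold change of -0.68 (SE 0.09, adjusted p = 0.0014 by edgeR). Pou3f1 was called at -0.55 (SE 0.14, adjusted p = 0.0357 by edgeR) and missed the threshold with the replicate block (adjusted p = 0.0745 by edgeR). Of 12 other HMG-box factors 0 were called in either direction in edgeR, while 3 were lower at an unadjusted p under 0.05 and DESeq2 called 4 lower and 0 higher. Cic, the most abundant of them, had an adjusted p of 0.704 in edgeR.

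Of 10 genes linked to SOXB1 or SOXE activity, 1 decreased and 2 increased, with a median log2 fold change of -0.18. At an unadjusted p under 0.05, 3 were lower and 2 higher, and DESeq2 called 3 lower and 2 higher. With the replicate block 2 were called lower, with Gli2, a transcription factor of the hedgehog pathway, added (log2 fold change -1.05, adjusted p = 0.0302 by edgeR, and -0.96 with an adjusted p of 0.0634 without the block). Pax6, the determinant of cortical radial glia, decreased from 121 ± 13.5 CPM (SD, n = 5) to 94.1 ± 6.52 CPM (SD, n = 5), a log2 fold change of -0.36 (SE 0.09, adjusted p = 0.0294 by edgeR) that lost its call in 7 of 10 fits leaving out a sample and without the samples of header number 57 (-0.25, adjusted p = 0.230 by edgeR). Fabp7, a radial glial fatty acid binding protein, increased from 429 ± 29.5 CPM (SD, n = 5) to 660 ± 127 CPM (SD, n = 5), a log2 fold change of 0.62 (SE 0.12, adjusted p = 0.0122 by edgeR), and without those samples it was 0.49 (adjusted p = 0.139 by edgeR). The glutamate transporter gene Slc1a3 increased by 0.43 (SE 0.07, adjusted p = 0.00447 by edgeR). Nes, the intermediate filament of progenitors, had an adjusted p of 0.661 in edgeR.

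Of 8 genes linked to SOXC activity, 0 decreased and 1 increased in edgeR, in DESeq2 and at an unadjusted p under 0.05, with a median log2 fold change of 0.08. Gap43, a growth cone protein, increased from 166 ± 21.2 CPM (SD, n = 5) to 228 ± 18.9 CPM (SD, n = 5), a log2 fold change of 0.46 (SE 0.10, adjusted p = 0.0161 by edgeR), which was 0.34 (adjusted p = 0.117 by edgeR) without the samples of header number 57. Tubb3, the neuronal tubulin, stood at 1553 ± 271 CPM (SD, n = 5) in controls and 1594 ± 211 CPM (SD, n = 5) in Dot1l-cKO (adjusted p = 0.907 by edgeR). Sox4 and Sox11 were thus lower while none of these 8 genes was called lower, and 3 of the 8 had a negative log2 fold change. Any link between them was not tested.

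Markers of the cells that the dorsal telencephalon holds, or that dissection could carry along, were read beside the Sox genes. Of 10 radial glia markers, 1 decreased (Pax6) and 4 increased, and their sum was 2624 to 2927 CPM in controls and 3344 to 3660 CPM in Dot1l-cKO. The largest rise was that of Tnc, an extracellular matrix gene (log2 fold change 1.04, SE 0.18, adjusted p = 0.00531 by edgeR), and Vim was the most abundant (0.53, SE 0.09, adjusted p = 0.00451 by edgeR). Of 6 markers of intermediate progenitors 0 were called in edgeR or DESeq2 and 0 had an unadjusted p under 0.05, and Eomes, their defining gene, measured 269.7 ± 50.1 CPM (SD, n = 5) in controls and 275 ± 27.2 CPM (SD, n = 5) in Dot1l-cKO. Of 8 neuronal markers 1 increased (Gap43) and 0 decreased in edgeR and DESeq2, and at an unadjusted p under 0.05 edgeR had 2 higher and 0 lower. The summed neuronal markers were 3489 to 5216 CPM in controls and 3985 to 4851 CPM in Dot1l-cKO. Defining markers of progenitors and neurons were therefore present in both groups, as the label of the tissue has it.

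Markers of MGE-derived interneurons, which also express Sox6, moved with genotype. Of 9 tested, 6 decreased and 0 increased, with a median log2 fold change of -0.97, and Nkx2-1 did not pass the filter. With the replicate block 7 were called lower, with Maf added (log2 fold change -1.05, adjusted p = 0.00517 by edgeR, and -0.97 with an adjusted p of 0.100 without the block). Without the samples of header number 57, 5 were called lower. Their sum was 252 to 407 CPM in controls and 133 to 211 CPM in Dot1l-cKO, without overlap. Lhx6, which specifies these interneurons, decreased from 30.4 ± 12.4 CPM (SD, n = 5) to 3.79 ± 2.20 CPM (SD, n = 5), a log2 fold change of -3.00 (SE 0.43, adjusted p = 0.00187 by edgeR). Satb1, the most abundant of the list, was not called (adjusted p = 0.276 by edgeR). The sum of 8 ventral and GABAergic markers was 81.5 to 314 CPM in controls and 29.1 to 108 CPM in Dot1l-cKO. The covariate given next was drawn from the ventral and GABAergic list only, and the part of the interneuron list was not tested. These ventral markers were themselves lower on average in Dot1l-cKO (mean sum 73.2 CPM, against 211 CPM in controls). The fit therefore cannot tell their part in the results on the Sox genes from that of genotype. With a score of the ventral and GABAergic markers as a covariate, which was added after the data were examined, Sox6 (log2 fold change -0.88, adjusted p = 0.0044 by edgeR) and Sox1 (-0.89, adjusted p = 0.0091 by edgeR) were called. Sox4 (-0.35, adjusted p = 0.0957 by edgeR) and Sox11 (-0.45, adjusted p = 0.0726 by edgeR) were not called in that fit, and Sox8 was at -0.33 (adjusted p = 0.502 by edgeR) and Sox12 at -0.02 (adjusted p = 0.985 by edgeR).

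Of 5 oligodendrocyte precursor markers tested, 0 decreased in edgeR, while 2 were lower at an unadjusted p under 0.05, and DESeq2 called 2 lower. The 1 that increased was Bcas1, from 0.758 ± 0.224 CPM (SD, n = 5) to 2.03 ± 0.687 CPM (SD, n = 5). Pdgfra, the most abundant, was not called (adjusted p = 0.818 by edgeR). Of 4 neural crest and pigment markers tested, 7 endothelial, 7 meningeal and mesenchymal, and 6 choroid plexus and hem markers, 0 were called in edgeR or DESeq2 and 0 had an unadjusted p under 0.05. Kdr, Col3a1 and Ttr, the most abundant genes of the last 3 of these lists, had adjusted p values of 0.950, 0.898 and 0.502 in edgeR. The summed choroid plexus and hem markers varied from 5.31 to 613 CPM among controls and from 9.501 to 163 CPM in Dot1l-cKO, and their part in the results on the Sox genes was not tested.

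At the Sox loci, 66 annotated genes overlap 1 of the 10 or lie within 100 kb of it. Of these 24 were tested, 2 called lower and 0 higher in edgeR, against 1.44% of all genes lower. At an unadjusted p under 0.05, 5 were lower and 0 higher, against 7.30% of all genes lower. DESeq2, which tested 35, called 5 lower and 0 higher, against 658 lower of the 28447 genes counted in the same way. The 2 called were 2610307P16Rik, a noncoding RNA 63299 bases from Sox4 (log2 fold change -0.74, SE 0.09, adjusted p = 0.00065 by edgeR), and Zcchc3, 13892 bases from Sox12 (-0.47, SE 0.09, adjusted p = 0.00999 by edgeR). Without the samples of header number 57 Zcchc3 was at -0.37 (adjusted p = 0.106 by edgeR). Sox1ot, a noncoding RNA that spans Sox1 on the same strand without sharing its exon, measured 28.1 ± 12.6 CPM (SD, n = 5) in controls and 9.23 ± 5.63 CPM (SD, n = 5) in Dot1l-cKO (-1.61, SE 0.51, adjusted p = 0.0862 by edgeR). Counting by strand cannot separate unspliced Sox1ot RNA over the Sox1 exon from Sox1. Sox2ot spans Sox2 in the same way and is absent from the count tables, and the part of neither RNA was tested. The other overlapping RNAs that were tested, all on the opposite strand, were Gm26735 at Sox4, Sox6os at Sox6, 2810468N07Rik at Sox8 and Gm4675 at Sox21, with adjusted p values of 0.294, 0.300, 0.846 and 0.670 in edgeR.

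In gene structure, 7 of the 10 Sox genes have a single exon, against 6.12% of the protein-coding genes tested. Of the 877 single-exon protein-coding genes left when these 7 are set aside, 1.48% were called lower, and their median log2 fold change was -0.01. Among the protein-coding genes tested whose mean log2 CPM reached 5 or more, a range that holds abundant genes such as Sox11, 2.11% were called lower. In the same range, 1.31% of the single-exon genes outside the 10 were called lower. These shares were not tested against each other.

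Sample-to-sample deviations from the group means, taken in log2 CPM over the 10 samples, described which genes varied alike within groups. The genes closest to Sox1 were Tmcc3 (r = 0.95), Cep120 (r = 0.94) and Foxp2 (r = 0.94). Among those closest to Sox4 were Aacs (r = 0.95) and 2700081O15Rik (r = 0.94). Nhs (r = 0.97), N4bp1 (r = 0.95) and Gli3 (r = 0.95) were closest to Sox6, and Rnf152 (r = 0.95), Prkaa2 (r = 0.95) and Slitrk4 (r = 0.94) to Sox11. Among the 10 Sox genes themselves the deviations of Sox3 and Sox9 (r = 0.89), Sox9 and Sox21 (r = 0.88) and Sox1 and Sox8 (r = 0.80) ran together, and those of Sox2 and Sox12 ran apart (r = -0.86). All these points share libraries, depth and header number, and the values are descriptions without a test. The genes named beside each Sox gene were the closest among all genes of mean log2 CPM of at least 1. Picking the highest r from so many genes favours high values by itself.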

How the data were processed

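RNA from 10 samples was examined, grouped by their titles into 5 control and 5 Dot1l-cKO. Per the study's methods and the labels, stranded ribosomal-RNA-depleted total RNA libraries were sequenced as paired ends, trimmed with Trim Galore 0.2.8, mapped to mm10 with TopHat2 2.0.9 and assigned to Ensembl genes by HTSeq 0.6.0 in reverse-stranded mode. The deposited count tables hold whole-number counts per gene. The deposited normalised tables (a signal with no absolute unit) are those counts divided by the authors' DESeq2 1.6.1 size factor of each sample. Of 43629 identifiers, 42548 matched a symbol in GENCODE M21. Identifiers without one held 0.268% of counts. Reads carried no molecular identifiers. Replicates differed by a chi-square per degree of freedom of at least 33.4, so none was counted as a duplicate.

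The genotypes were compared with edgeR 4.0.16 in R 4.3.3 (TMM, filterByExpr, quasi-likelihood test, no covariate), and p-values were adjusted over all 17039 genes tested by the Benjamini-Hochberg method. SEs are approximate, from the F statistic. log2 CPM used a prior count of 2. The study used DESeq2, which is an alternative here. Samples sharing a replicate number deviated together, with correlations of 0.41, 0.39, 0.25, 0.67 and 0.17 for replicates 1 to 5, so blocked values are given where they change a call. This pairing follows the replicate numbers of the sample titles. The header numbers pair replicates 1, 4 and 5 across the groups in the same way, as 51, 90 and 154. The remaining replicates all had header number 57, which does not pair them 1 to 1. The correlations gave less backing, since replicates 1 and 4 alone correlated best with their own number.

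The Sox genes and gene lists were chosen with earlier results of these data known. Named genes are the 10, the other Sox genes, Dot1l, from each list the called gene of largest rise and fall and the most abundant gene, overlapping genes at the loci, and the 3 genes varying most like each called one. Some genes of this rule are not reported here. Pou3f1, Slc1a3, Gli2, Maf, 2610307P16Rik and Zcchc3 were named after their values were seen. Alternatives were DESeq2 1.42.0, its size factors in edgeR, no filter or at least 10 counts in every sample, blocks for replicate and header number, fits within header numbers, a GC-content offset alone and with the block, Xist as a covariate, removal of mitochondrial genes, limma 3.58.1 on log2 of the normalised values plus 1, and each sample left out. The test of header number and the covariate of ventral and GABAergic markers were added after the data were examined. The edgeR script was tested on simulated data.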

Additional observations from a re-analysis of the deposited data

Results flagged for a closer look

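In 38 groups of 5 samples (19 genes in each genotype), 2 had a sample farther from the others than Dixon's 95% limit of 0.71 allows, and chance gives about 1 in 20. Both were the lowest value of Dot1l-cKO replicate 2. For Sox6 the gap to the next sample was 0.747 of the group's range, with 62.6 CPM against a median of 77.8 CPM. For Dot1l it was 0.717 of the range, with 20.1 CPM against a median of 42.3 CPM. These shares are of ranges on the log2 scale. Without Dot1l-cKO replicate 2 Sox6 had an adjusted p of 0.00035 in edgeR.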

How the results depend on the processing

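Sox1, Sox4, Sox6 and Sox11 were called lower in all 10 fits leaving out 1 sample, with adjusted p in edgeR of at most 0.0039, 0.0382, 0.00113 and 0.0205. Of the other 14 alternatives, Sox1 and Sox6 missed the threshold only within header number 57, and Sox4 and Sox11 there and with the ventral and GABAergic covariate. The number of the 10 called, 4 as reported and all lower, was 6 with DESeq2, the replicate block or the header number block, 7 with the block and GC offset (Sox12 added), 2 with the ventral and GABAergic covariate, 0 within header number 57, and 4 to 5 with a sample left out (0 to 0 higher).

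Counts over all genes, 1212 with 246 lower and 966 higher, moved more. They were 1995 with 658 lower by DESeq2, 495 lower with the replicate block, 597 lower with the header number block, and 419 lower with the GC offset. With the block and GC offset they were 1882 with 777 lower. Within header number 57 they were 1 with 0 lower and 1 higher, and within the other samples 745 with 155 lower and 590 higher. With the ventral and GABAergic covariate they were 582 with 86 lower and 496 higher. Leaving out a sample gave 750 to 1357, with 126 to 343 lower and 624 to 1076 higher. The lower count fell below by over 1.5 times without control replicates 1, 2 or 4 (126, 134, 136) or Dot1l-cKO replicates 1, 3 or 4 (149, 157, 144). The cause was not tested, beyond the smaller number of samples. Pairing by the replicate block changed no other call among the 10 Sox genes than those of Sox2 and Sox8.

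Sign changes arose in 14 of 43 genes, and in 0 of those called. Each value here is a log2 fold change of the opposite sign to that reported. With DESeq2, Sox21 was at -0.012. With DESeq2 size factors, Sox21 was at -0.0088. With the GC offset, Sox21 was at -0.034, Sox7 at -0.0043, Tubb3 at -0.012 and Eomes at -0.021. With Xist as a covariate, Kdr was at 0.044 and Col3a1 at 0.32. With the header number block, Sox7 was at -0.16. With limma, Sox7 was at -0.25, Dot1l at -0.0058 and Ttr at 0.30. With the replicate block, Sox7 was at -0.18. With the block and GC offset, Sox21 was at -0.013, Sox7 at -0.23, Dot1l at -0.021, Tubb3 at -0.0021 and Eomes at -0.011. With the ventral and GABAergic covariate, Sox21 was at -0.034, Sox7 at -0.39, Eomes at -0.15 and 2810468N07Rik at 0.26. Within header number 57, Sox21 was at -0.20, Sox7 at -0.88, Dot1l at -0.37 and Eomes at -0.12. Within the other samples, Sox3 was at 0.19, Sox13 at 0.062, Sox17 at 0.18, Sox18 at 0.25, Tubb3 at -0.087, Pdgfra at 0.42, Kdr at 0.25 and Col3a1 at 1.07. With a sample left out, signs varied for Sox21 from -0.061 to 0.13, Sox7 from -0.44 to 0.32, Sox18 from -0.27 to 0.068, Dot1l from -0.046 to 0.25, Tubb3 from -0.049 to 0.10, Eomes from -0.034 to 0.12, Pdgfra from -1.16 to 0.067, Kdr from -0.32 to 0.16, Col3a1 from -1.34 to 0.46 and 2810468N07Rik from -0.18 to 0.049.

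Depth limits Sox10 and Sox30, with at most 45 and 71 counts in a sample, more than any of the 10 Sox genes.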
